A study of Homo sapiens with 22 samples.

Results

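The 31 genes described here encode the subunits and regulators of cohesin, condensin and the SMC5/6 complex, together with CTCF and YY1. They were chosen by symbol, from what their proteins do, with earlier results of these data known. All 31 are among the 26485 gene symbols counted in each library. They comprise 5 core cohesin genes (SMC1A, SMC3, RAD21, STAG1 and STAG2), 3 genes of meiotic cohesin (SMC1B, REC8 and STAG3), 2 loader genes (NIPBL and MAU2) and 6 genes of release and maintenance (WAPL, PDS5A, PDS5B, ESCO1, ESCO2 and CDCA5). Boundary and loop proteins are CTCF and YY1. The condensins have 2 shared core genes (SMC2 and SMC4), 3 genes of condensin I (NCAPD2, NCAPG and NCAPH) and 3 of condensin II (NCAPD3, NCAPG2 and NCAPH2). The SMC5/6 complex has 5 genes here (SMC5, SMC6, NSMCE1, NSMCE2 and NSMCE4A).

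Cohesin, condensin and SMC5/6 are ring-shaped ATPases, each built on a pair of SMC proteins. Cohesin holds sister chromatids together until anaphase and, in interphase, extrudes chromatin loops that CTCF bound to DNA can halt. Condensin I and II fold chromosomes for mitosis, and SMC5/6 acts in DNA replication and repair. Cohesin and CTCF are needed in resting cells too, whereas mRNAs of several condensin subunits, of the acetyltransferase ESCO2 and of sororin (CDCA5) are known to be abundant in dividing cells.

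RNA was sequenced in 22 libraries labelled MDA-MB231, an established human line of triple-negative breast cancer, in 3 experiments. In the first, cells of genotype WT were given Nexturastat A, an inhibitor of the deacetylase HDAC6, at 7.65 µM and sampled at day 2 (n = 2), against Ctrl cells of genotype WT, labelled as given DMSO and sampled at day 2 (n = 2). In the second, cells of genotype HDAC6 knockdown, carrying hairpin shHDAC6-1 (n = 3) or shHDAC6-2 (n = 3), are set against cells with a control hairpin (shCtrl, genotype WT, n = 3), all at day 0. The last holds WT cells given HPOB or Tubastatin A, both also inhibitors of HDAC6, against DMSO, at day 2 (n = 3 each). The sources used here give no dose of HPOB or Tubastatin A, and the titles of the Tubastatin A libraries carry the letters TSA, a common short name of trichostatin A, a broad inhibitor of deacetylases. The group is called here by its treatment label, and which of the compounds was given cannot be told from these sources. How the hairpins were delivered, and whether the cells with a hairpin were clones or pools, is not given either. Nothing in the labels says that replicates came from separate cultures, so p-values measure only the spread between these libraries, which may be technical.

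Libraries held 31.2 to 85.9 M counts (M, mega). HDAC6 mRNA checks the hairpins: in replicates 1 and 2 it averaged 12.4 CPM (counts scaled by library size) ± 0.553 with shHDAC6-1 and 13.2 CPM ± 1.16 with shHDAC6-2, against 49.2 CPM ± 5.18 in shCtrl (SD, n = 2 each). In replicate 3 it stood at 9.2 and 11.6 CPM with the hairpins, against 24.9 CPM in shCtrl. The 6 knockdown libraries of replicates 1 and 2 went against the label of the line: CD44, CAV1 and AXL, which MDA-MB231 cells are known to express highly, stood at 18.2 to 35.3 CPM there and at 274 to 1630 CPM in the Ctrl, Nexturastat A and compound libraries. VIM and MSN, also known from this line, remained abundant there, at 624 to 780 CPM and 317 to 408 CPM, though below the 1370 to 2240 CPM and 515 to 1850 CPM of all other libraries. CDKN2A, a cell cycle inhibitor which this line is known to lack, had 143 to 187 CPM in these 6, while its highest value among the 13 libraries of the other experiments was 0.0332 CPM. In replicate 3, CDKN2A was at 0 CPM in shCtrl, 7.11 CPM with shHDAC6-1 and 24.1 CPM with shHDAC6-2. The other genes that the line is known to lack or hold low did not set these 6 apart as clearly, with ESR1 and PGR at or below 0.705 CPM, CDH1 at 5.22 to 7.57 CPM and ERBB2 at 65.2 to 83.8 CPM in them. Replicates 1 and 2 of the knockdown are therefore called by their labels below, and replicate 3 is described apart. Of 9 markers of immune, endothelial and fibroblast cells, 6 stayed at or below 3.01 CPM in every library, among them CD3E at or below 0.169 CPM, while PECAM1 reached 30.6 CPM, PDGFRB 13.2 CPM and COL1A1 75.1 CPM.

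Promoter sequence gives a first way to ask which of these genes share features with genes of mitosis. The CHR (cell cycle genes homology region, TTTGAA or TTCGAA) is a promoter element known from genes expressed in G2 and mitosis, often beside a CCAAT box, and E2F sites (searched as TTCCCGC or TTGGCGC) are known from genes of S phase. Both strands were searched from 250 bases before to 50 bases after each start in RefSeq (GRCh38.p14), where 26 of the 31 genes have an entry. RAD21, ESCO1, ESCO2, NCAPH2 and NSMCE2 have none. A CHR-type match was found in 6 of 7 condensin genes (85.7%), in 4 of the 19 other members (21.1%) and in 19.5% of all 27305 genes of the table. Of 23 genes of a mitosis and G2/M list, 18 had one (78.3%) and 16 had a CCAAT match too (69.6%), against 2 of the 7 condensin genes with both (28.6%) and 7.85% of all genes. An E2F-type match stood in 11 of the 19 members outside condensin (57.9%), in 2 of 7 condensin genes (28.6%) and in 11% of all genes. A CCAAT box on the other strand reads ATTGG and can share letters with TTGGCGC. Each match is a run of letters and not a shown site.

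The next sequences show the CHR-type match, in capitals, with up to 12 bases on each side, in 4 condensin genes. They read along the strand of the gene, and TTCAAA is TTTGAA on the other strand. They are NCAPG (chr4:17810932-17810961, plus strand, first base of the match 35 bases before the start), SMC2 (chr9:104094294-104094323, plus strand, 3 bases before), NCAPD3 (chr11:134223953-134223982, minus strand, 3 bases before) and NCAPD2 (chr12:6493945-6493974, plus strand, 145 bases before). These windows were chosen after the values below were seen.
NCAPG: tcgcgggaattaTTTGAAcgttcgagcggt
SMC2: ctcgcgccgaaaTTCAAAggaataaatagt
NCAPD3: gcgggagcgagcTTTGAAagttgagcacgg
NCAPD2: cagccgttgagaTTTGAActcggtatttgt

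Whole promoters are shown for the members at both ends of the response to Nexturastat A, 3 with the most negative and 3 with the least negative log2 fold change among those with a mean of at least 5 CPM, with one chromosome left out. ESCO2 (-1.63), on that chromosome, had the second most negative value at that level and would otherwise stand among the first 3. Of the others, ESCO1 has no entry. The first 3 shown are NCAPH (chr2:96335516-96335815, plus strand), NCAPG2 (chr7:158704755-158705054, minus strand) and SMC4 (chr3:160399400-160399699, plus strand, the first of its 2 listed starts). At the other end are SMC6 (chr2:17753761-17754060, minus strand) and NSMCE1 (chr16:27268723-27269022, minus strand). Capitals mark CHR-type and CCAAT matches. NCAPH, the condensin gene without a CHR-type match in this window, has a CCAAT match, NSMCE1 has 2 CCAAT matches and SMC6 has none of the 3 motifs.
NCAPH: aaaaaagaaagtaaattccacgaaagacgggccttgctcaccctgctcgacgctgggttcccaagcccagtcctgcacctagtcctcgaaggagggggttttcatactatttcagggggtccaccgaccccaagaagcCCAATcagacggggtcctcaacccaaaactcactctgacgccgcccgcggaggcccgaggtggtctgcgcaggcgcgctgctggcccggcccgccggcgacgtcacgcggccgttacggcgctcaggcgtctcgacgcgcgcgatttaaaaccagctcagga
NCAPG2: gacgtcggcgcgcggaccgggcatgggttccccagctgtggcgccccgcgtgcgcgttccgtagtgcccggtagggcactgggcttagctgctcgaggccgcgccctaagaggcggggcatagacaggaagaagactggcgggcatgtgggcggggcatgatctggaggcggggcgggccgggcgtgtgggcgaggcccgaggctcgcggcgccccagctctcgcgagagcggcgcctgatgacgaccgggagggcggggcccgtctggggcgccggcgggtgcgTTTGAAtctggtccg
SMC4: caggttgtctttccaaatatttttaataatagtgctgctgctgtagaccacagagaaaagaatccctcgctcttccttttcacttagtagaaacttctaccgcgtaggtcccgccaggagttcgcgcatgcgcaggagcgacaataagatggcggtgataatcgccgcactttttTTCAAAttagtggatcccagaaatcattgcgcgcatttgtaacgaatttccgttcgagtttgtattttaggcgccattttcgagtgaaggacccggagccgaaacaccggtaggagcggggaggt
SMC6: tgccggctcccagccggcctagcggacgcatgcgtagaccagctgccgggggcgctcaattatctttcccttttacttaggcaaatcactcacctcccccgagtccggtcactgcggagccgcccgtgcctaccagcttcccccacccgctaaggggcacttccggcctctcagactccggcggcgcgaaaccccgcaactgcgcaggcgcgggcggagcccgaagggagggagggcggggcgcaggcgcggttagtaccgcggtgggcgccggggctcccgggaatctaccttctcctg
NSMCE1: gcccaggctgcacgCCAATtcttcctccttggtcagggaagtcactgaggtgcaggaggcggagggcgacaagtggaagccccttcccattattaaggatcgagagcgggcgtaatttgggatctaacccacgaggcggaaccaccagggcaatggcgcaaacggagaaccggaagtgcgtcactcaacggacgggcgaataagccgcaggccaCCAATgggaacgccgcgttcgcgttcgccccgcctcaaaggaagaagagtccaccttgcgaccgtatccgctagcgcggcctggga

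Divided by transcript length, RAD21, the subunit that closes the cohesin ring, had the highest level of the 31 genes in each control group, at 153 CPM per kb in Ctrl, 66.9 in shCtrl (replicates 1 and 2) and 110 in DMSO. Next came NCAPD2 (86.9 CPM per kb) and SMC4 (63.1) in Ctrl, SMC4 (56.8), NCAPD2 (55.2), NCAPH2 (54.4) and CDCA5 (51.4) in shCtrl, and CDCA5 (58.8), SMC3 (53.8), SMC4 (51.6) and NCAPD2 (47.4) in DMSO. In shCtrl, each of SMC4, NCAPD2, NCAPH2 and CDCA5 overlapped the next gene in that order, CDCA5 with STAG2, over the 2 libraries. The meiotic genes were the lowest 3 in Ctrl and shCtrl, with SMC1B at 0.0522 CPM per kb in Ctrl and 1.27 in shCtrl. STAG2 stood at 25.7 CPM per kb in Ctrl, and STAG1, its alternative in the complex, at 8.14. SMC1B had too few counts to be tested with Nexturastat A, HPOB and Tubastatin A, so 30 members were tested there and 31 with the hairpins.

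**Figure D1:**
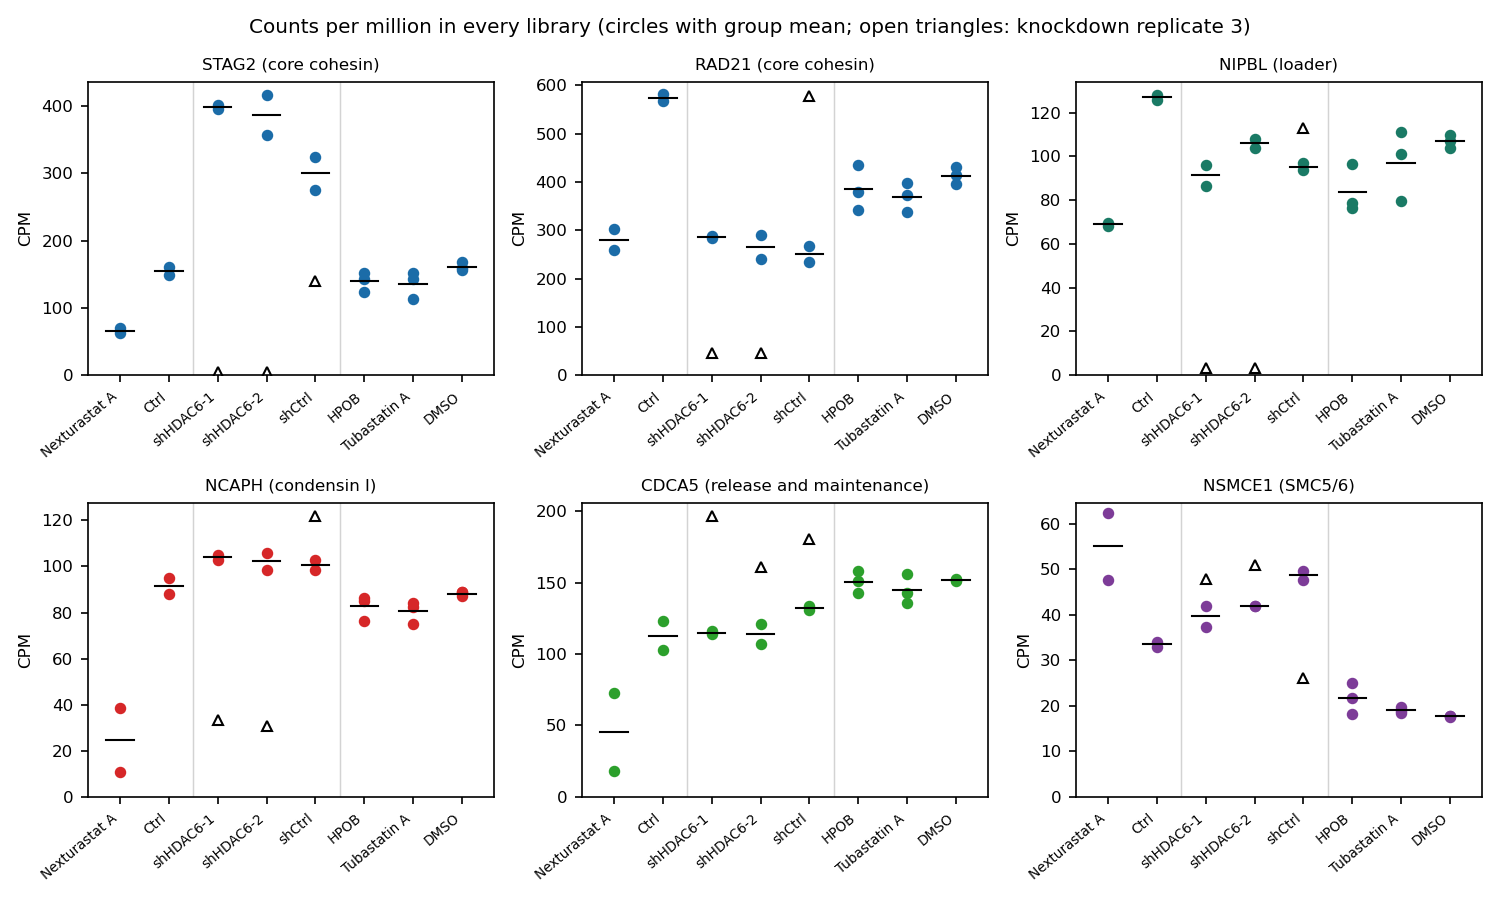
Level of STAG2, RAD21, NIPBL, NCAPH, CDCA5 and NSMCE1 in CPM in every library, by group, with circles for libraries, bars for group means and open triangles for replicate 3 of the knockdown. RAD21 lay at 259 and 302 CPM with Nexturastat A, below Ctrl at 581 and 567 CPM, and NSMCE1 lay above Ctrl with Nexturastat A.

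With Nexturastat A, most of these genes were lower than in Ctrl, and core cohesin was lower throughout. A gene is called where edgeR's quasi-likelihood test gave a Benjamini-Hochberg adjusted p under 0.05 over all genes tested. Of 30 members tested, 17 were called lower, where 15.5% of all 16678 genes were, and 1 was called higher, where 21.1% of all genes were. The median log2 fold change was -0.84 over the members and 0.03 over all genes. In bulk RNA, fewer dividing cells and less RNA per cell cannot be told apart. Markers of other cells moved in the same contrast: of the 9, 6 had enough counts to be tested and 5 of these were called higher, namely PTPRC, VWF, PECAM1, COL1A1 and PDGFRB. The sixth, LYZ, went the other way and was not called, at 0.0665 and 0.164 CPM with Nexturastat A, against 0.512 and 0.337 CPM in Ctrl. The summed level of the 9 was 70.5 and 68 CPM with Nexturastat A, against 31.2 and 27.7 CPM in Ctrl. PTPRC had 16 and 40 counts with Nexturastat A, against 0 and 0 counts in Ctrl, and CD3E had 2 and 0 counts with Nexturastat A, against 0 and 0 counts in Ctrl. PTPRC and VWF (6 and 6 counts in Ctrl) had enough counts to be tested only through the Nexturastat A libraries. The direction of those 2 calls was thus set in advance. What part these markers have in the members' values was not tested.

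All 5 core cohesin genes were called lower, with a median log2 fold change of -1.03. STAG2, a subunit that binds the ring and CTCF (chrX:123960212-124422664, GRCh38), had 62.8 and 70 CPM with Nexturastat A, against 149 and 161 CPM in Ctrl, a log2 fold change of -1.22 ± 0.13 (SE; adjusted p = 0.00133). RAD21 had 259 and 302 CPM with Nexturastat A, against 581 and 567 CPM in Ctrl (-1.03 ± 0.14, adjusted p = 0.00277). Both Nexturastat A libraries lay near each other and far below both Ctrl libraries for these 2 genes. SMC1A, one of the 2 SMC arms of the ring (chrX:53374149-53422728), had 37.3 and 71.2 CPM with Nexturastat A, against 123 and 131 CPM in Ctrl (-1.22 ± 0.30, adjusted p = 0.0287). Its partner SMC3 (chr10:110567691-110604636) had 126 and 136 CPM with Nexturastat A, against 188 and 208 CPM in Ctrl (-0.60 ± 0.12, adjusted p = 0.0111). STAG1 had 34 and 37 CPM with Nexturastat A, against 47.6 and 51 CPM in Ctrl (-0.47 ± 0.13, adjusted p = 0.0309). The 2 SMC arms thus differed in spread, since SMC1A alone among the core genes had clearly unequal Nexturastat A libraries. Of the exonic bases of STAG1, 25.3% are shared with PCCB on the other strand, and of RAD21 9.35% with UTP23. The same holds for condensin genes taken up below: 35% of NCAPG with LCORL, 23.9% of SMC4 with TRIM59 and 8.35% of NCAPD2 with MRPL51. The sources used here do not state whether counting used strand.

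Both loader genes were called lower. NIPBL, which drives loading and loop extrusion, had 68.4 and 69.6 CPM with Nexturastat A, against 128 and 126 CPM in Ctrl (log2 fold change -0.88 ± 0.12, adjusted p = 0.00281). Its partner MAU2 had 34.6 and 52.9 CPM with Nexturastat A, against 72.6 and 72.1 CPM in Ctrl (-0.73 ± 0.20, adjusted p = 0.0298). Of the 6 genes of release and maintenance, 3 were called lower. PDS5A, which helps to release and to protect cohesin, had 99 and 111 CPM with Nexturastat A, against 228 and 237 CPM in Ctrl (-1.15 ± 0.12, adjusted p = 0.00151). WAPL, the release factor itself, had 60 and 75.2 CPM with Nexturastat A, against 115 and 121 CPM in Ctrl (-0.81 ± 0.15, adjusted p = 0.00705). PDS5B was the third, at -0.67 ± 0.14. ESCO1, an acetyltransferase of SMC3, was close to Ctrl at -0.10 ± 0.18 (adjusted p = 0.675), and ESCO2 and CDCA5, which act around S phase, were not called and are taken up below. CTCF (chr16:67562407-67639185) was called lower, with 43.4 and 50.7 CPM under Nexturastat A, against 68.4 and 76.4 CPM in Ctrl (-0.62 ± 0.14, adjusted p = 0.0149). YY1, which binds promoters and enhancers, was called lower too, with 77.8 and 82.2 CPM under Nexturastat A, against 111 and 113 CPM in Ctrl (-0.49 ± 0.12, adjusted p = 0.0178). Among the meiotic genes, REC8 was called lower at 0.848 and 0.69 CPM with Nexturastat A, against 2.89 and 2.14 CPM in Ctrl (-1.71 ± 0.35, adjusted p = 0.0104), and STAG3 was not called.

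Condensin genes showed larger differences and fewer calls. All 8 had a negative log2 fold change, of -0.53 to -1.89, but 2 of 8 were called, SMC2 of the shared core and NCAPD2 of condensin I. SMC2 had 58.2 and 92.6 CPM with Nexturastat A, against 159 and 173 CPM in Ctrl (-1.14 ± 0.22, adjusted p = 0.00878). NCAPD2 had 136 and 263 CPM with Nexturastat A, against 481 and 484 CPM in Ctrl (-1.27 ± 0.31, adjusted p = 0.0268). For both, the Nexturastat A libraries were apart from each other but below both Ctrl libraries. NCAPH, which closes the ring of condensin I, had 10.8 and 38.6 CPM with Nexturastat A, against 88.2 and 95 CPM in Ctrl, and missed the threshold with the lowest log2 fold change of the members tested (-1.89 ± 0.65, adjusted p = 0.0948). NCAPG2 of condensin II had 26.5 and 75.6 CPM with Nexturastat A, against 147 and 156 CPM in Ctrl (-1.57 ± 0.54, adjusted p = 0.0951). SMC4 had 76.6 and 173 CPM with Nexturastat A, against 343 and 348 CPM in Ctrl (-1.47 ± 0.42, adjusted p = 0.0562), and was called by DESeq2. No condensin II gene was called.

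SMC5/6 was divided. SMC5 (chr9:70258962-70354888) had 42.6 and 51.5 CPM with Nexturastat A, against 82.1 and 79.7 CPM in Ctrl (log2 fold change -0.78 ± 0.14, adjusted p = 0.007), and NSMCE4A was called lower at -0.61 ± 0.13. SMC6, the partner of SMC5 in the ring, had 115 and 113 CPM with Nexturastat A, against 133 and 145 CPM in Ctrl, and was not called (-0.29 ± 0.12, adjusted p = 0.0979). NSMCE1, a RING-domain subunit (chr16:27224991-27268794), was the single member called higher, with 62.3 and 47.7 CPM under Nexturastat A, against 34.1 and 32.9 CPM in Ctrl (0.72 ± 0.16, adjusted p = 0.0152). With each library's trends with GC and length taken out, NSMCE1 stood at 0.13 (adjusted p = 0.479) and was no longer called.

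**Figure D2:**
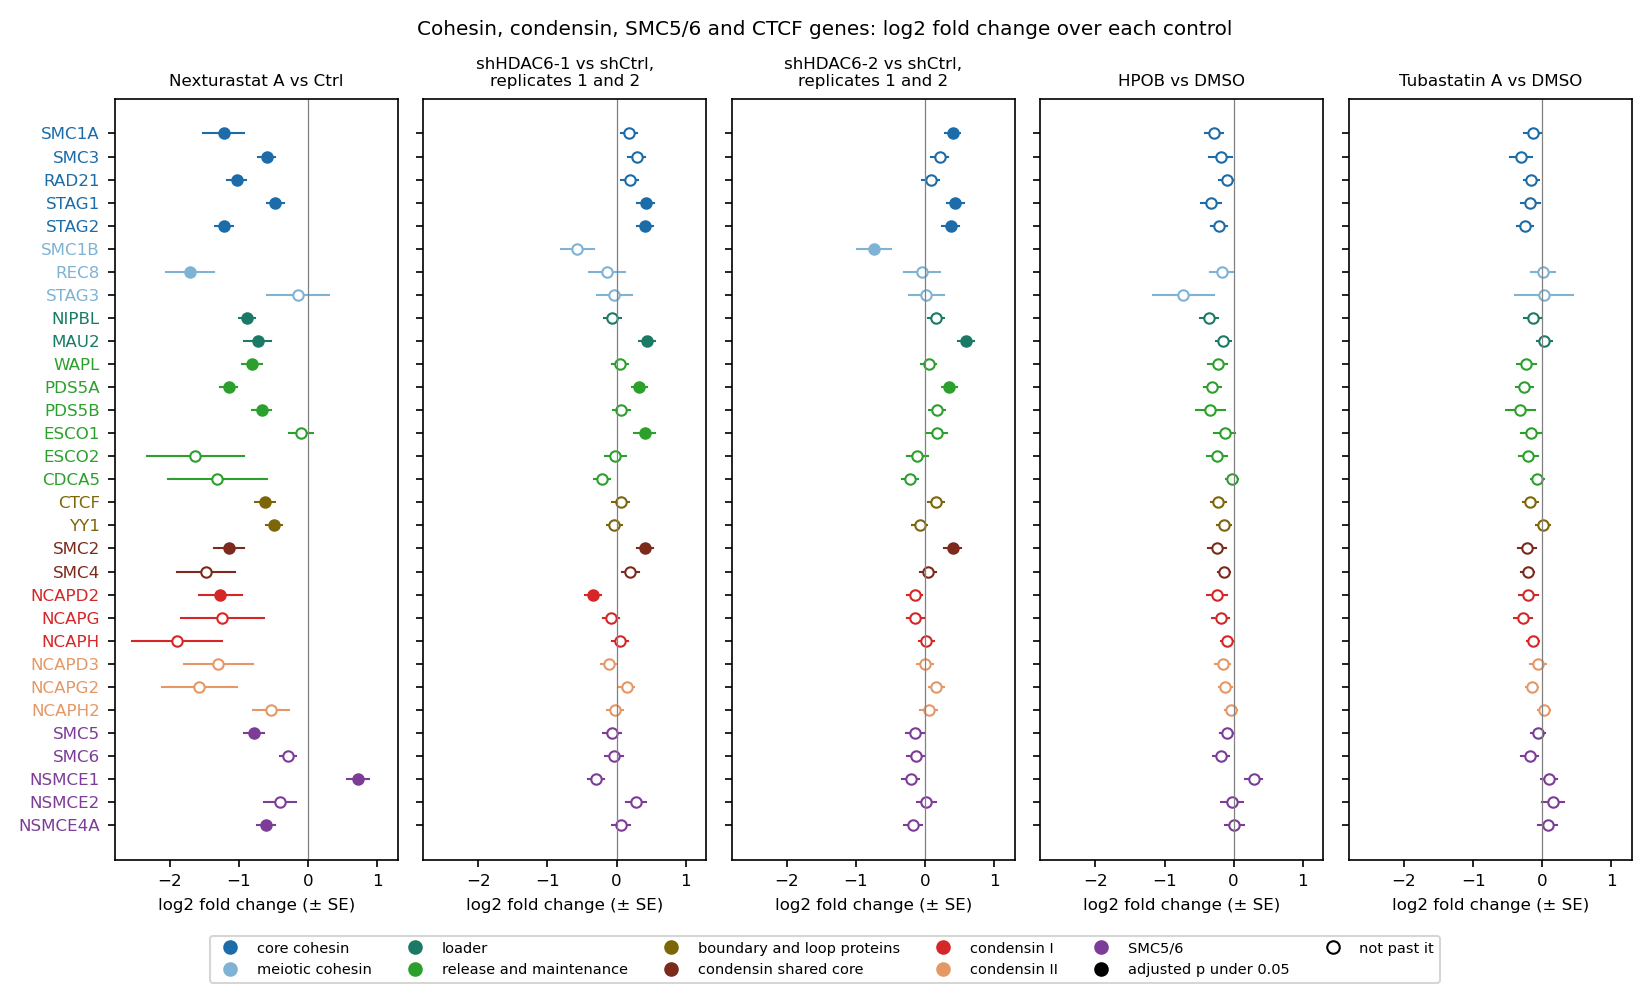
Log2 fold change of each member in the 5 comparisons with a control, ± SE, coloured by class, with filled points where the adjusted p was under 0.05. With Nexturastat A, 29 of 30 points lie below 0, from NCAPH at -1.89, and NSMCE1 lies above at 0.72.

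The count with Nexturastat A rests on the spread of few libraries. Without Ctrl replicate 1 or without Ctrl replicate 2, 5 members were called each time instead of 18, and without either Nexturastat A library 26 were. In these fits the lone library is assumed to vary as the remaining pair does, and the share of all genes called in them is not given here. NIPBL, PDS5A, RAD21 and STAG2 were called in all 11 alternative fits that were run, and the other 14 calls were lost in at least 1.

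Cell division genes moved in the same libraries, and the 2 Nexturastat A libraries differed in them. Of the 30 genes of the mitosis and G2/M list, 0 were called higher and 2 lower, ECT2 (-1.02 ± 0.19) and BUB3 (-0.62 ± 0.13). The list had 18 genes at an unadjusted p under 0.05 in edgeR, where 8051 of all 16678 genes were, and a median log2 fold change of -1.76. MKI67, the proliferation antigen, had 37 and 170 CPM with Nexturastat A, against 392 and 374 CPM in Ctrl. Of 25 genes of DNA replication and S phase, 3 were called lower, PCNA, RFC4 and POLA1, and the median was -0.97. The spread within the Nexturastat A group allows a comparison of 2 libraries that had the same treatment, replicate 1, with MKI67 at 9.65% of the Ctrl mean, and replicate 2, at 44.4%. The members and lists were chosen with earlier results of these data known, and with 1 library on each side this comparison has no test.

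Members differed widely in that comparison. As a log2 ratio of Nexturastat A replicate 1 over replicate 2, the median was -1.76 over the mitosis list, where 28 of 30 genes were below -1, and -1.47 over the S phase list, where 20 of 25 were. Over all 16678 genes, 3.43% were below -1. Of the 30 members, 7 were (23.3%), namely ESCO2, CDCA5, SMC4, NCAPG, NCAPH, NCAPD3 and NCAPG2. Of these 7, 5 are condensin genes, and the other 2 establish cohesion around S phase. The condensin I median was -1.69, that of condensin II -1.41 and that of the shared condensin core -0.92, while core cohesin had a median of -0.16, with SMC3 at -0.11, STAG1 at -0.12, STAG2 at -0.16, RAD21 at -0.22 and SMC1A apart at -0.93. The SMC5/6 median was 0.02.

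Seen as a share of the Ctrl mean, NCAPH stood at 11.8% in Nexturastat A replicate 1 and 42.2% in replicate 2. CDCA5 stood at 16% and 64.6%, and ESCO2 at 13.1% and 51.6%. By contrast STAG2 stood at 40.5% and 45.1%, PDS5A at 42.6% and 47.6%, NIPBL at 53.8% and 54.7%, and RAD21 at 45.2% and 52.5%. The mRNAs of STAG2, PDS5A, NIPBL and RAD21 were thus near the same level in both Nexturastat A libraries, while those of 5 of the 8 condensin genes, ESCO2 and CDCA5 had log2 ratios below -1, as did 28 of 30 mitosis genes. STAG2, PDS5A, NIPBL and RAD21 are also the 4 genes called in all 11 alternative fits. With 2 libraries per group a call favours genes whose replicates are near each other, so these ratios are not separate from the calls. The other condensin genes, NCAPD2 (-0.95), NCAPH2 (-0.81) and SMC2 (-0.67), lay between, and so did SMC1A (-0.93) and MAU2 (-0.62). Between the 2 Ctrl libraries the same log2 ratios of the members tested ranged from -0.36 to 0.43.

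**Figure D3:**
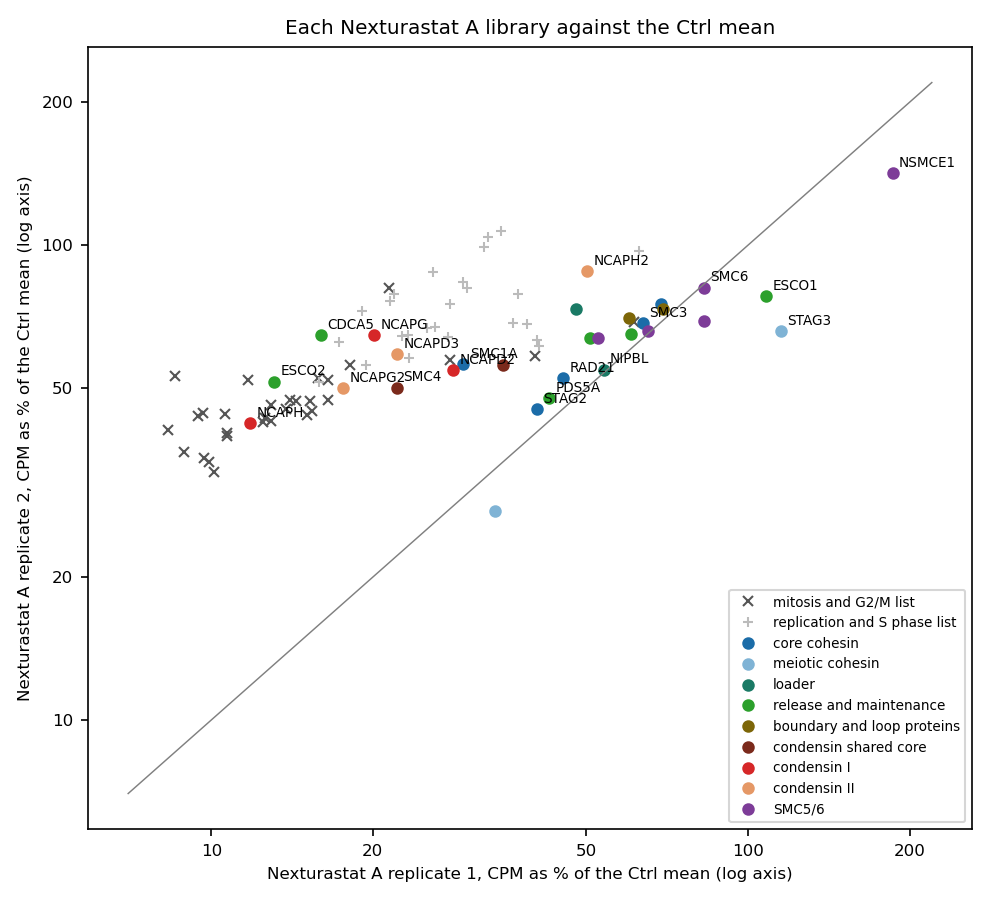
CPM in Nexturastat A replicate 2 against replicate 1, each as a percent of the Ctrl mean on a log axis, with 1 point per gene for the members and for the mitosis and S phase lists, and a line of equality. STAG2 (40.5% and 45.1% in replicates 1 and 2) and NIPBL (53.8% and 54.7%) lie near the line, while NCAPH (11.8% and 42.2%) lies among the mitosis genes.

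The compound experiment has 9 libraries, and correlations of the members with genes of division were computed across them. A mitosis index was taken as the mean over the 30 genes of the mitosis list of log2 CPM, centred per gene; no member is in that list. Its whole range was 0.24 on the log2 scale. The index was -0.004, -0.002 and -0.09 with HPOB, 0.004, -0.129 and -0.038 with Tubastatin A, and 0.082, 0.108 and 0.068 in DMSO, so the DMSO libraries held the highest 3 values. Pearson's r with the index was tested by exact permutation over the 9 libraries (two-sided) and adjusted over all 15338 genes. Libraries were permuted without regard to group, so differences between the groups enter these p-values. The relation was called for 11 of 30 members, each with a positive r, where 3.8% of all genes were called with a positive r. The median r was 0.76 over the members and -0.05 over all genes.

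NCAPG of condensin I (r = 0.94, rho = 0.97, adjusted permutation p = 0.0117), SMC4 (r = 0.94, rho = 0.97) and SMC2 (r = 0.89, rho = 0.87) followed the index, and so did NCAPG2 (r = 0.87, rho = 0.93) and ESCO2 (r = 0.87, rho = 0.83). So, however, did genes of core cohesin, other genes of release and maintenance, and CTCF: STAG2 (r = 0.92, rho = 0.93), SMC3 (r = 0.88, rho = 0.82), WAPL (r = 0.91, rho = 0.93), PDS5A (r = 0.94, rho = 0.88), PDS5B (r = 0.86, rho = 0.92) and CTCF (r = 0.89, rho = 0.93). By rho, 7 members were called, and the calls by rho over all genes were not counted. Condensin genes and genes of cohesin were thus both among the 11. Members with r near 0 or below were MAU2 (-0.02), STAG3 (0.06), NCAPD3 (0.12), NCAPH2 (0.18), NSMCE2 (-0.24), NSMCE4A (-0.36) and NSMCE1 (-0.42, rho = -0.73), and RAD21 missed the threshold at r = 0.83 (adjusted permutation p = 0.0656).

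With fewer libraries, or with an index from the S phase list, the calls were lost, although r stayed high for most of the 11. Without Tubastatin A replicate 2 and DMSO replicate 2, the 2 libraries farthest from the median index, 0 members were called. Of the 30 members, 13 had an unadjusted permutation p under 0.05, against 2097 of all 15338 genes. Within the 6 inhibitor libraries 0 members were called and 12 had an unadjusted permutation p under 0.05, against 2661 of all genes. There r was 0.99 for NCAPG, 0.98 for STAG2, 0.96 for WAPL, 0.93 for SMC2 and 0.62 for NCAPG2. In neither setting was any of the 15338 genes called, the lowest adjusted p being 0.113 and 0.182, so the lost calls do not show a weaker relation. With the S phase index over the same 9 libraries, 0 members and 0 of all genes were called (lowest adjusted permutation p = 0.0845 over all genes). There 15 members had an unadjusted permutation p under 0.05, against 3328 of all genes. GC content moved with the index as well: the rank correlation of each library's deviations with the GC content of the transcripts had r = -0.69 (exact permutation p = 0.0397) and rho = -0.75 (exact permutation p = 0.0255) with the index over the 9 libraries, and its part in the relation was not tested.

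**Figure D4:**
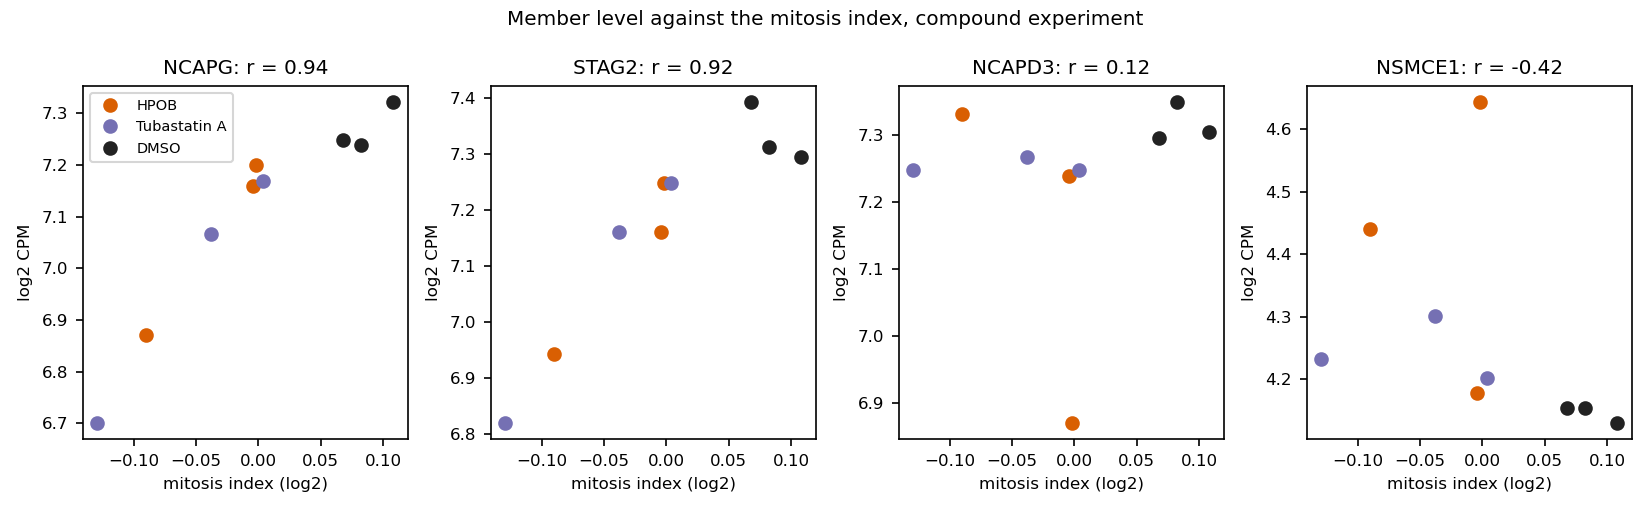
Log2 CPM of NCAPG, STAG2, NCAPD3 and NSMCE1 against the mitosis index (log2) in the 9 libraries of HPOB, Tubastatin A and DMSO, 1 point per library. NCAPG (r = 0.94) and STAG2 (r = 0.92) lie along a line, NCAPD3 (r = 0.12) and NSMCE1 (r = -0.42) do not, and the 3 DMSO libraries lie at the right.

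HPOB and Tubastatin A gave no called change in any member. With HPOB, 0 of 30 were called higher, where 0.0261% of 15338 genes were, and 0 lower, where 0% were. In edgeR 5 members had an unadjusted p under 0.05, against 1588 of all genes, and DESeq2 also called 0. With Tubastatin A, 0 members were called, where 0% of all genes were. In edgeR 2 members had an unadjusted p under 0.05, against 757 of all genes, and DESeq2 called 0. Most members were nonetheless slightly lower in both groups: 28 of 30 log2 fold changes were negative with HPOB (median -0.17) and 22 of 30 with Tubastatin A (median -0.15), against 49% and 46.8% of all genes. The 2 groups share the DMSO libraries. Between Tubastatin A and HPOB edgeR called 0 members, where 0% of all genes were called. In edgeR 0 members and 481 of all genes had an unadjusted p under 0.05, and DESeq2 called 0 members.

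STAG2 had 143, 152 and 123 CPM with HPOB and 152, 113 and 143 CPM with Tubastatin A, against 159, 157 and 168 CPM in DMSO. Both inhibitors lay below all DMSO libraries for this gene. Log2 fold changes were -0.21 (95% interval by the normal distribution -0.45 to 0.02) and -0.25 (-0.49 to -0.01). Such intervals are too narrow with so few libraries. The second leaves out 0, yet 0 core cohesin genes had an unadjusted p under 0.05 in edgeR with Tubastatin A. SMC3 had 206, 231 and 146 CPM with HPOB and 207, 149 and 179 CPM with Tubastatin A, against 221, 227 and 216 CPM in DMSO. HPOB overlapped DMSO for SMC3, and the lowest values came from HPOB replicate 3 and Tubastatin A replicate 2. RAD21 had 379, 435 and 341 CPM with HPOB and 398, 337 and 372 CPM with Tubastatin A, against 430, 414 and 395 CPM in DMSO. RAD21 overlapped DMSO with both inhibitors. SMC1A had 303, 216 and 274 CPM with HPOB and 318, 259 and 302 CPM with Tubastatin A, against 329, 309 and 328 CPM in DMSO. STAG1 had 48.7, 46.4 and 36.6 CPM with HPOB and 55, 39.7 and 52 CPM with Tubastatin A, against 56.2, 53.2 and 55.6 CPM in DMSO. HPOB lay below all DMSO libraries for SMC1A and STAG1, and Tubastatin A overlapped them for both.

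PDS5B of release and maintenance and the loader NIPBL held no call with either inhibitor. PDS5B had 46, 48 and 28.6 CPM with HPOB and 49.3, 27.7 and 47.5 CPM with Tubastatin A, against 51, 50.2 and 54.1 CPM in DMSO, and was the member of release and maintenance with the most negative value under both (-0.34 ± 0.21 and -0.32 ± 0.21). NIPBL had 96.4, 78.5 and 76.6 CPM with HPOB and 111, 79.4 and 101 CPM with Tubastatin A, against 104, 107 and 110 CPM in DMSO. PDS5B was lowest in HPOB replicate 3 and Tubastatin A replicate 2, while NIPBL was low in HPOB replicates 2 and 3. HPOB lay below all DMSO libraries for NIPBL (-0.35, 95% interval by the normal distribution -0.61 to -0.10, too narrow in the same way), and Tubastatin A overlapped them.

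No condensin gene was called with either inhibitor. NCAPG had 143, 147 and 117 CPM with HPOB and 144, 104 and 134 CPM with Tubastatin A, against 151, 160 and 152 CPM in DMSO (-0.19 ± 0.13 and -0.28 ± 0.13). SMC2 had 166, 153 and 135 CPM with HPOB and 176, 126 and 158 CPM with Tubastatin A, against 192, 172 and 171 CPM in DMSO (-0.24 ± 0.13 and -0.22 ± 0.13). NCAPG lay below all DMSO libraries in both inhibitor groups, and SMC2 did with HPOB. NCAPD2 had 263, 175 and 229 CPM with HPOB and 247, 194 and 247 CPM with Tubastatin A, against 266, 265 and 258 CPM in DMSO. Of condensin II, NCAPD3 had 151, 117 and 161 CPM with HPOB, against 163, 158 and 157 CPM in DMSO (-0.16 ± 0.11), and NCAPG2 had 219, 197 and 198 CPM with Tubastatin A, against 230, 233 and 217 CPM in DMSO (-0.15 ± 0.09). The low value of NCAPD2 and NCAPD3 under HPOB came from replicate 2, a library other than the one that was low for PDS5B.

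CTCF and the meiotic and SMC5/6 genes held no call either. CTCF had 60.3, 64.3 and 54 CPM with HPOB and 66.7, 53.5 and 64.9 CPM with Tubastatin A, against 72.8, 68.2 and 67 CPM in DMSO (-0.22 ± 0.11 and -0.17 ± 0.11), and every inhibitor library was below every DMSO library. STAG3 of meiotic cohesin had 0.344, 0.611 and 0.927 CPM with HPOB and 1.18, 0.993 and 1.06 CPM with Tubastatin A, against 1.53, 0.993 and 0.641 CPM in DMSO, with overlap throughout. NSMCE1 had 18.1, 25 and 21.7 CPM with HPOB and 18.4, 18.8 and 19.7 CPM with Tubastatin A, against 17.8, 17.5 and 17.8 CPM in DMSO (0.29 ± 0.12 and 0.10 ± 0.12). It lay above all DMSO libraries in both groups and was not called in either. SMC6 had 61.9, 71.9 and 53.6 CPM with HPOB and 68.2, 57.8 and 61.3 CPM with Tubastatin A, against 73.2, 71.1 and 67.9 CPM in DMSO, with overlap in both. Across the 30 members, log2 fold changes and GC content had a rank correlation of 0.694 with Tubastatin A and 0.312 with HPOB, against 0.318 and 0.101 over all genes, and its part in these values was not tested. The mitosis list had medians of -0.11 with HPOB and -0.13 with Tubastatin A, and 0 of its 30 genes were called.

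Of the 5 core cohesin genes, 2 were called higher with shHDAC6-1 in knockdown replicates 1 and 2, and 3 with shHDAC6-2. With Nexturastat A all 5 were called lower, in libraries that differ from these in the line markers given above. With shHDAC6-1, 6 of 31 members were called higher, where 15.3% of 17702 genes were, and 1 lower, where 15.2% were. With shHDAC6-2, 6 were called higher, where 14.4% of all genes were, and 1 lower, where 13.2% were. Both comparisons share the shCtrl libraries. The member medians were 0.05 with shHDAC6-1 and 0.04 with shHDAC6-2, against -0.02 and 0.002 over all genes. The 6 of 31 members called higher are a share near that of all genes. Of the markers of other cells, COL1A1 was called higher with each hairpin, and the summed level of the 9 was 65.7 and 63.9 CPM with shHDAC6-1 and 71.7 and 79.3 CPM with shHDAC6-2, against 43.6 and 52 CPM in shCtrl. Between shHDAC6-1 and shHDAC6-2 edgeR called no member: 0 were called, where 0% of all genes were, 0 members and 1107 of all genes had an unadjusted p under 0.05, and DESeq2 called 0 members.

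STAG2 had 396 and 402 CPM with shHDAC6-1 and 416 and 357 CPM with shHDAC6-2, against 325 and 275 CPM in shCtrl (log2 fold changes 0.41 ± 0.12 and 0.37 ± 0.12). STAG1 had 65.6 and 62.2 CPM with shHDAC6-1 and 67.3 and 62.2 CPM with shHDAC6-2, against 50.5 and 44.9 CPM in shCtrl (0.42 ± 0.12 and 0.44 ± 0.12). Every hairpin library lay above both shCtrl libraries for these 2 genes, and both were called with each hairpin. SMC1A had 413 and 393 CPM with shHDAC6-1 and 477 and 463 CPM with shHDAC6-2, against 338 and 372 CPM in shCtrl, and was called with shHDAC6-2 alone (0.40 ± 0.11, adjusted p = 0.00713), although the hairpins were not shown to differ. SMC3 had 199 and 203 CPM with shHDAC6-1 and 204 and 178 CPM with shHDAC6-2, against 172 and 158 CPM in shCtrl. RAD21 had 284 and 289 CPM with shHDAC6-1 and 291 and 241 CPM with shHDAC6-2, against 268 and 234 CPM in shCtrl. Neither SMC3 nor RAD21 was called, and shHDAC6-2 overlapped shCtrl for RAD21.

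MAU2 and PDS5A were called higher with each hairpin, and so was SMC2, the one condensin gene that was. The loader subunit MAU2 had 92 and 87.1 CPM with shHDAC6-1 and 91.5 and 106 CPM with shHDAC6-2, against 60.6 and 71.1 CPM in shCtrl (log2 fold changes 0.44 ± 0.12 and 0.59 ± 0.12). PDS5A had 145 and 139 CPM with shHDAC6-1 and 149 and 140 CPM with shHDAC6-2, against 116 and 110 CPM in shCtrl (0.33 ± 0.11 and 0.35 ± 0.11). SMC2 had 113 and 110 CPM with shHDAC6-1 and 118 and 103 CPM with shHDAC6-2, against 89.9 and 78.1 CPM in shCtrl (0.41 ± 0.12 and 0.40 ± 0.12). The groups did not overlap for any of these 3 genes. ESCO1 was called higher with shHDAC6-1 alone, at 42.2 and 36.3 CPM with shHDAC6-1 and 35.9 and 30.7 CPM with shHDAC6-2, against 33.6 and 25.5 CPM in shCtrl. NCAPD2 of condensin I was called lower with shHDAC6-1 (-0.34 ± 0.11, adjusted p = 0.0227), at 248 and 235 CPM with shHDAC6-1 and 278 and 275 CPM with shHDAC6-2, against 291 and 322 CPM in shCtrl. The meiotic SMC1B was called lower with shHDAC6-2 (-0.74 ± 0.24, adjusted p = 0.022), at 4.09 and 3.07 CPM with shHDAC6-1 and 3.73 and 2.64 CPM with shHDAC6-2, against 6.2 and 4.44 CPM in shCtrl. For SMC1B and NCAPD2 all hairpin libraries lay below both shCtrl libraries.

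CTCF and YY1, the condensin II genes and SMC5/6 held no call with either hairpin. CTCF had 84.3 and 83.6 CPM with shHDAC6-1 and 94.6 and 85.2 CPM with shHDAC6-2, against 78.6 and 82.9 CPM in shCtrl (0.06 ± 0.12 and 0.16 ± 0.12). NCAPG2 had 198 and 191 CPM with shHDAC6-1 and 207 and 187 CPM with shHDAC6-2, against 183 and 169 CPM in shCtrl (0.15 ± 0.11 and 0.16 ± 0.11). NSMCE1, which was called higher with Nexturastat A, had 37.4 and 41.8 CPM with shHDAC6-1 and 42 and 42 CPM with shHDAC6-2, against 49.7 and 47.7 CPM in shCtrl (-0.30 ± 0.12 and -0.21 ± 0.12).

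Genes of division held more calls lower than higher with the hairpins, where 15.2% of all genes were called lower with shHDAC6-1 and 13.2% with shHDAC6-2. The mitosis list had 3 called higher and 7 lower of 30 with shHDAC6-1, and 1 higher and 7 lower with shHDAC6-2. AURKB, a mitotic kinase, had 44.8 and 49.7 CPM with shHDAC6-1 and 45 and 47.9 CPM with shHDAC6-2, against 160 and 178 CPM in shCtrl (-1.84 ± 0.12 and -1.87 ± 0.12). Next were HMMR (-0.73) and MKI67 (-0.57) with shHDAC6-1, and HMMR (-0.99) and CDK1 (-0.50) with shHDAC6-2. The S phase list had 1 higher and 10 lower of 25 with shHDAC6-1, and 1 higher and 8 lower with shHDAC6-2. RRM2 was the gene called higher with both (0.99 and 0.92). The index stood at -0.027 and -0.04 in shHDAC6-1 libraries and at -0.031 and -0.131 in shHDAC6-2 libraries, against 0.178 and 0.05 in shCtrl, where the groups stand apart, so no correlation with the index was computed. DMSO stood apart in the compound experiment too, where the correlation was computed with that limit.

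The knockdown calls depended on how the libraries were treated. Log2 fold changes and GC content had a rank correlation of -0.323 with shHDAC6-1 and -0.235 with shHDAC6-2 over the 31 members, and of -0.379 and -0.269 over all genes. With the trends on GC content and length removed, 7 members were called higher and 6 lower with each hairpin, in place of 6 and 1. The shares of all genes called in this and the following fits are not given here. Leaving out shCtrl replicate 2, shHDAC6-1 replicate 1 or shHDAC6-1 replicate 2 left 2 members called with shHDAC6-1 each time, and leaving out shCtrl replicate 2 or shHDAC6-2 replicate 1 left 4 and 2 with shHDAC6-2.

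Replicate 3 of the knockdown looked unlike replicates 1 and 2, and with 1 library of each kind it has no test. By log2 CPM, its shCtrl library correlated at 0.974 to 0.979 with the Ctrl libraries of the Nexturastat A experiment. The same library correlated at 0.844 to 0.861 with its own hairpin libraries and at 0.77 to 0.784 with replicates 1 and 2. Hairpin and library cannot be told apart in the ratios below. Of the 30 members with at least 10 counts in each library, 25 were lower and 5 higher with each hairpin, and 22 had a log2 ratio below -1 with either hairpin, where 37% of 14033 genes did with shHDAC6-1 and 36% with shHDAC6-2. The member medians were -2.82 with shHDAC6-1 and -2.90 with shHDAC6-2, against -0.29 and -0.24 over all genes. SMC3 had 3.86 CPM with shHDAC6-1 and 3.5 CPM with shHDAC6-2, against 212 CPM in shCtrl. SMC2 had 3.2 and 3.19 CPM with the hairpins, against 182 CPM in shCtrl, and NIPBL 3.1 and 3.45 CPM, against 113 CPM. RAD21 had 46.9 and 44.9 CPM with the hairpins, against 577 CPM in shCtrl, STAG1 3.28 and 5.38 CPM, against 87 CPM, STAG2 4.84 and 5.38 CPM, against 140 CPM, and SMC1A 45.1 and 62.9 CPM, against 160 CPM. On these levels, scaled by library totals, CDCA5 with shHDAC6-2 had a log2 ratio of -0.17, and of 0.03 with TMM factors. STAG1, STAG2, PDS5A and SMC2, called higher with the hairpins in replicates 1 and 2, were thus far lower in replicate 3.

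GC content of the transcript moved with these ratios. The rank correlation of the log2 ratio with GC content was 0.790 with shHDAC6-1 and 0.776 with shHDAC6-2 over all genes, and 0.876 with each hairpin over the 30 members. Medians were -2.64 and -2.65 in the fifth of genes poorest in GC, and 1.15 and 1.02 in the fifth richest in it. Members that were higher with both hairpins included genes of high GC content. MAU2 (57.3% GC) had 98.3 and 93.2 CPM with the hairpins, against 71.3 CPM in shCtrl, NCAPH2 (62.2%) had 90.6 and 92.2 CPM, against 63.4 CPM, and NSMCE1 (53.1%) had 47.9 and 50.9 CPM, against 26.1 CPM. CDCA5 (55.3%) had 197 CPM with shHDAC6-1 and 161 CPM with shHDAC6-2, against 181 CPM in shCtrl. GC content did not order all members: NSMCE4A, with the same 53.1% GC as NSMCE1, had 14.4 and 19.8 CPM with the hairpins, against 47.8 CPM in shCtrl. STAG3 (53.9%) had log2 ratios of -0.84 and -0.79 and NCAPD2 (52.5%) of -0.71 and -0.78, while NSMCE2 (42.9%) had -0.31 and 0.10. STAG2, at 36.6% GC, and SMC3, at 38.9%, were among the low ones. The part of GC content in these ratios was not tested.

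**Figure D5:**
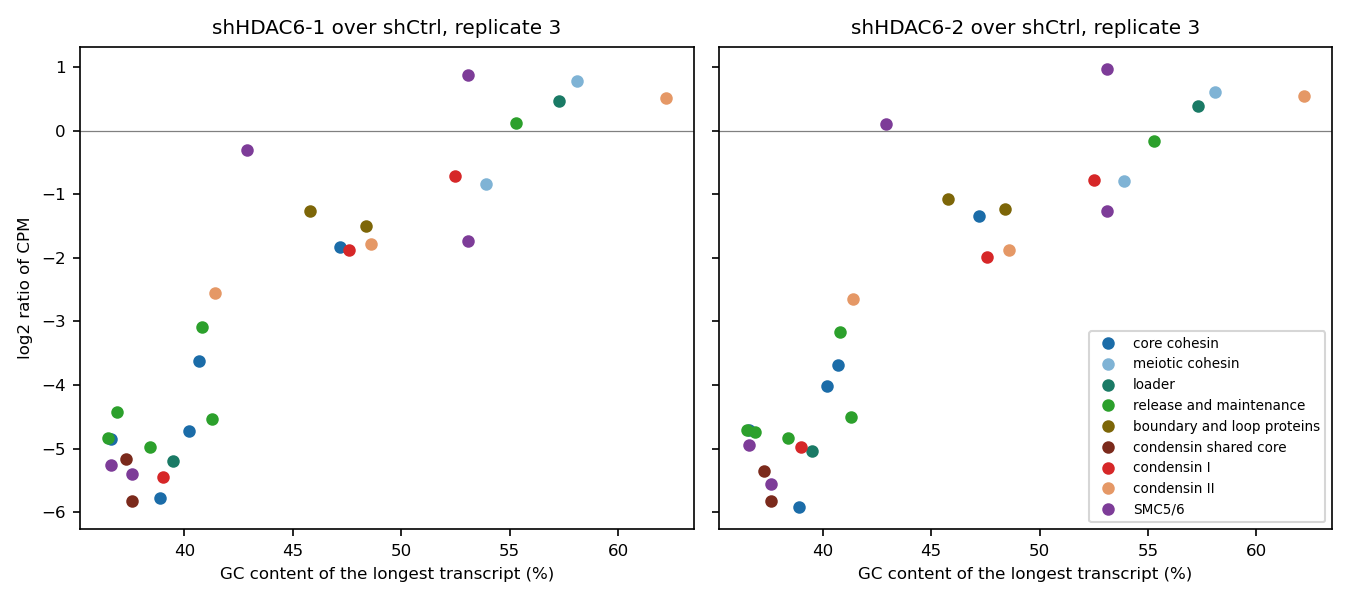
Log2 ratio of each hairpin over shCtrl in replicate 3 against the GC content of the longest transcript, in percent, for 30 members coloured by class. STAG2 (36.6% GC) and SMC3 (38.9%) lie far below 0, and MAU2 (57.3%), NCAPH2 (62.2%) and NSMCE1 (53.1%) lie above it.

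The effect of Nexturastat A was compared directly with those of the other agents, each against the controls of its own experiment, in 1 fit of 19 libraries. Against HPOB, 14 of 31 members had a more negative effect of Nexturastat A, where 8.68% of 18995 genes did, and 0 a more positive one, where 10.3% did. Against Tubastatin A, 18 were more negative and 1 more positive, where 9.78% and 11% of all genes were. Against shHDAC6-1, 21 were more negative and 1 more positive (14.2% and 20.6% of all genes), and against shHDAC6-2, 19 and 1 (14.3% and 20.1%). The effect and the experiment cannot be told apart, since the experiments differ in their cells, libraries and depth.

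STAG2 had a difference of -0.98 ± 0.18 against HPOB, -0.94 against Tubastatin A, -1.57 ± 0.20 against shHDAC6-1 and -1.52 against shHDAC6-2 on the log2 scale, each called. RAD21 (-0.90, -0.84, -1.16 and -1.05 in the same order), PDS5A (-0.80, -0.86, -1.41 and -1.43), NCAPG2 (-1.41, -1.39, -1.65 and -1.66), NCAPH (-1.77, -1.73, -1.87 and -1.85) and SMC4 (-1.30, -1.23, -1.60 and -1.44) were called in all 4 as well. Of these, NCAPG2, NCAPH and SMC4 were not called for Nexturastat A against its own Ctrl. The joint fit takes each gene's spread over the libraries of all experiments, and its calls rest on that shared spread. Of the mitosis list, 28 of 30 genes were called more negative against HPOB, where 2 of 30 were called lower against Ctrl alone. SMC3 was called against neither HPOB (-0.38, adjusted p = 0.248) nor Tubastatin A (-0.25, adjusted p = 0.464). NSMCE1 was the member with a more positive effect, at 0.65 against Tubastatin A, 1.08 against shHDAC6-1 and 1.00 against shHDAC6-2.

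Partner genes of the complexes, taken from a list of 27 of which 23 are in the files, were mostly lower where called. With Nexturastat A, 2 were called higher and 8 lower of 23 tested, where 21.1% and 15.5% of all genes were. The median log2 fold change of the partners was -0.70. SLF2, which brings SMC5/6 to damaged DNA, had 22.1 and 32.7 CPM with Nexturastat A, against 71.6 and 69 CPM in Ctrl (-1.36 ± 0.20). CTCFL, the testis paralog of CTCF, had 16 and 11 counts with Nexturastat A, against 0 and 0 counts in Ctrl, and EID3, a subunit variant of SMC5/6, had 62 and 43 counts, against 4 and 17 counts in Ctrl. Both were called higher, at few counts. Neither would have been tested on its Ctrl libraries alone, so the direction of these calls was set in advance. TOP2B, a topoisomerase found at CTCF sites, was called lower with Nexturastat A (-1.10) at 129 and 121 CPM, against 274 and 261 CPM in Ctrl. With the hairpins in replicates 1 and 2 it was called higher, at 343 and 332 CPM with shHDAC6-1 and 361 and 311 CPM with shHDAC6-2, against 250 and 236 CPM in shCtrl. Of 23 partners tested with the hairpins, 2 were called higher and 7 lower with shHDAC6-1, where 15.3% and 15.2% of all genes were. With shHDAC6-2, 2 were called higher and 9 lower, where 14.4% and 13.2% were. ESPL1, the separase that cuts RAD21, and LDB1, a looping factor, were called lower with both (-0.82 and -0.75 with shHDAC6-1, -0.62 and -0.48 with shHDAC6-2). With HPOB and Tubastatin A, 0 of 22 partners tested were called by edgeR. Of all genes, 0.0261% were called higher and 0% lower with HPOB, and 0% were called with Tubastatin A.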

How the data were processed

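Each library has 1 table of raw counts of reads per gene symbol, deposited by the authors; the submitters' processing notes name Trim Galore 0.6.7, STAR 2.7.9a, featureCounts 2.0.3, DESeq2 1.30.1 and the build GRCh38, with no role or order. The sources used here name neither the annotation nor the strand setting. Each experiment was fitted apart with edgeR 4.0.16 in R 4.3.3 (TMM, filterByExpr by group with a minimum count of 10 and a minimum total of 15, robust quasi-likelihood F test), adjusted by Benjamini-Hochberg over all genes tested; the code was tested on simulated data. Knockdown replicates 1 and 2 were fitted without replicate 3, whose levels are scaled by library totals. Differences between effects came from 1 joint fit. CPM uses the TMM factors of its own fit. The log2 CPM of the mitosis index has a prior count of 2, and exact permutation covered 362880 orders. Its p-values were to be adjusted over the members and are adjusted over all genes, a choice made after seeing the data. Length, GC content and positions are those of the longest transcript in GENCODE release 29. Counting error and the number of libraries both limit precision.

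The members and lists were chosen with earlier results of these data known. Genes given in every library are core cohesin, in each other class up to 2 called members with the largest change (or the largest tested where none was called), HDAC6, the marker genes, and up to 3 called genes of the proliferation and partner lists. One gene of the partner list that the rule names is not reported here. Promoters shown are those of the 3 members with the most and the 3 with the least negative change with Nexturastat A at a mean CPM of at least 5, where the promoter table has them; chromosome 8, and with it ESCO2, was left out. MKI67, TOP2B and the CHR windows were added after values were seen. Alternatives were DESeq2 1.42.0, RLE size factors, all genes with any count, a mean CPM of at least 5, removal of trends on GC content and length (splines with 3 degrees of freedom), a replicate block, all 9 knockdown libraries together, 2 groups alone, and leaving out each library.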

Additional observations from a re-analysis of the deposited data

Results flagged for a closer look

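The response of the members differed between experiments, by the test of the difference itself in edgeR. The effect of Nexturastat A differed from that of HPOB in 14 members, from that of Tubastatin A in 19, from that of shHDAC6-1 in 22 and from that of shHDAC6-2 in 20. Members numbered 31 in this fit. Of all 18995 genes, 3610, 3937, 6610 and 6537 differed in the same order. The cells, libraries and depth of the experiments differ too, and cannot be told apart from the agent.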

How the results depend on the processing

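With Nexturastat A the count of members called ranged from 5 to 26 when 1 library was left out, and DESeq2, RLE size factors, the filters and GC correction gave 15 to 19. With shHDAC6-1 leaving out 1 library gave 2 to 9, removal of GC and length trends 13, the same with a replicate block 14, and all 9 knockdown libraries 0. With shHDAC6-2 these were 2 to 6, 13, 12 and 0. In the fit of all 9 libraries, called genes changed sign: with shHDAC6-1 ESCO1 (-0.39), STAG1 (-0.56), PDS5A (-0.81) and SMC2 (-0.73), and with shHDAC6-2 STAG1 (-0.53), PDS5A (-0.79) and SMC2 (-0.75). Leaving out 1 library gave 9 to 19 members for the difference between Nexturastat A and HPOB, 11 to 23 against Tubastatin A, 15 to 25 against shHDAC6-1 and 17 to 23 against shHDAC6-2. The mitosis relation gave 0 members with an S phase index, 0 without the 2 farthest libraries and 0 in the 6 inhibitor libraries, the last chosen after seeing the data. With HPOB and Tubastatin A, 0 members were called in each alternative run. The cause was not tested. With the replicate block the counts were 22 with Nexturastat A, 10 with shHDAC6-1 and 7 with shHDAC6-2, and 0 with HPOB and Tubastatin A. Residuals of libraries with the same number correlated at 0.105 in the Nexturastat A experiment, -0.0465 to 0.161 in the knockdown and -0.155 to 0.198 in the compound experiment, so the numbers were not taken as pairs. The 2 or 3 libraries per group limit which differences can be told from their spread. Shares of all genes called in these alternatives are not given here, so the member counts cannot be set against them.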
